A study of Rattus norvegicus with 4 samples.

Results

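A set of 9 genes of the oligodendrocyte lineage and of myelin was followed in the neonatal rat hippocampus: Olig1, Olig2, Sox10, Pdgfra, Cspg4, Mbp, Cnp, Mag and Mog. Their rows were found by gene symbol, each gene had exactly 1 row, and together they were 9 of the 17445 rows that the expression tables list. RNA-seq had been made from the hippocampi of Wistar pups on postnatal day 1. Pregnant rats had been given bisphenol A (BPA), a plasticizer that acts on estrogen receptors, at 5000 µg/kg body weight, or the vehicle alone. Dosing was daily by the intragastric route, from gestation day 1 until delivery, and the vehicle was corn oil holding the ethanol of the stock. There were 4 groups, control males, BPA males, control females and BPA females, each of them 1 library made from a pool of 3 hippocampi. No group therefore had a replicate library, so the spread between pups or litters could not be measured, and the dam is not identified for any pool.

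Oligodendrocytes are the cells that wrap axons of the central nervous system in myelin. They arise from migrating progenitors that carry the receptor Pdgfra and the proteoglycan Cspg4 (NG2) and that are specified by the transcription factors Olig1, Olig2 and Sox10. As they mature they switch on Cnp and Mbp, and later Mag and Mog, whose products build and hold the myelin sheath. In the rat most hippocampal myelin forms after birth, so a newborn hippocampus is rich in progenitors and poor in myelinating cells.

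The promoters of 3 of the genes are shown because they link the receptor of the progenitor (Pdgfra), an early myelin enzyme (Cnp) and a late myelin protein (Mag) to the letters CANNTG, the E-box that basic helix-loop-helix factors such as Olig1 and Olig2 can bind. Each run is the 250 bases before the RefSeq start in the rat assembly GRCr8, 5′ to 3′ on the strand of the gene, with every CANNTG in capitals.
Pdgfra, chr14:33408517-33408766, minus strand: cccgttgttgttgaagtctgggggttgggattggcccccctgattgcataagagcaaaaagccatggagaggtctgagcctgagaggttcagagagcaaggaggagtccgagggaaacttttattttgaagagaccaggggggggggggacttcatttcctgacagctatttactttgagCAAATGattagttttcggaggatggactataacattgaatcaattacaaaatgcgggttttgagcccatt
Cnp, chr10:86011254-86011503, plus strand: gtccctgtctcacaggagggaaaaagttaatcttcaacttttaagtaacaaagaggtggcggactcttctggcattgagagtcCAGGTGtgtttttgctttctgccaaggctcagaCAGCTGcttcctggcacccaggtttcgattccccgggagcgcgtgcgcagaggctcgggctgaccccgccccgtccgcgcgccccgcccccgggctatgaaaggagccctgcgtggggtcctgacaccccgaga
Mag, chr1:95291045-95291294, minus strand: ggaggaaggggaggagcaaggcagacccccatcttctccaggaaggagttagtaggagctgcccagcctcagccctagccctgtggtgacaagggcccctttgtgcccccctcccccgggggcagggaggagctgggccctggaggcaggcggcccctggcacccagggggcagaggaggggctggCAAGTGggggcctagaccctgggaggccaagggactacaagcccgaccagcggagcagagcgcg
The Pdgfra window held 1 match, the Cnp window 2, of which 1 was CAGCTG, and the Mag window 1. The windows of Olig2 and Cspg4 held 0, and of the 2 windows listed for Mbp 1 held 0 and the other 3, 1 of them CAGCTG. Among all 33465 promoter windows of this length in the RefSeq table, 65.6% held at least 1 CANNTG and 11.97% held CAGCTG, so a match was the usual state. CANNTG and CAGCTG read the same on both strands, and every CAGCTG is also a CANNTG. The letters ACAAAG, a core bound by Sox factors such as Sox10, stood once, on either strand, in the Cnp window, once in the Mag window and once in 1 of the Mbp windows, against 16.3% of all windows with at least 1. A match is a run of letters and not a measured binding site.

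The deposited values are FPKM, in which fragments are divided by the length of the gene model and by library size, so levels can be compared between genes as well as between libraries. No read counts were given. The steps between low values place the libraries at 8660000 to 8880000 fragments, and the fragments and intervals below rest on that estimate and cover counting error only. Hippocampal neurons were well represented, with Neurod6 at 135 to 161 FPKM and Rbfox3 at 34.7 to 37.7. Of the 8 hippocampal markers, 1, Prox1, was lower under BPA in both sexes and 2 were higher in both. Prox1 was at 12.38 and 10.24 FPKM in males and at 12.81 and 7.61 in females, control first. Zbtb20 went in opposite directions, at 17.61 and 21.58 FPKM in males and at 23.65 and 16.17 in females. The libraries also stood apart in neighbouring tissue. The summed level of 7 choroid plexus markers was 266 FPKM in control males and 707 in BPA males, against 9.49 in control females and 45.6 in BPA females. Ttr made up most of it, and the other 6 markers summed to 9.62 and 17.3 FPKM in control and BPA males and to 5.53 and 3.24 in control and BPA females, where the order turned. That of 9 meningeal fibroblast markers was 75.9 and 61.9 FPKM in control and BPA males and 180 and 67.3 in control and BPA females. In bulk tissue, fewer cells of a type and less RNA per cell cannot be told apart.

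**Figure D1:**
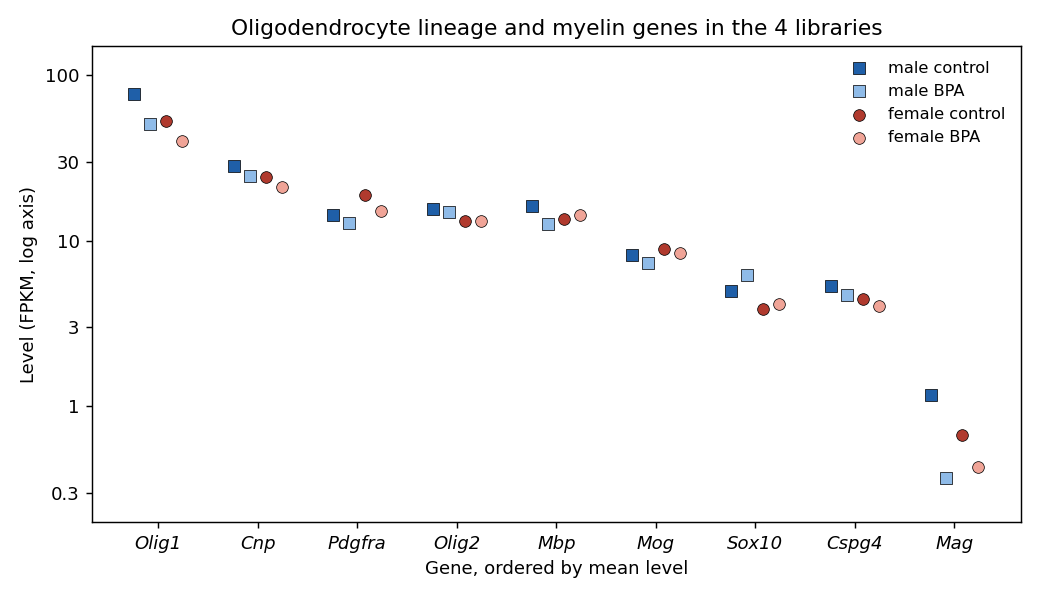
Level of each of the 9 genes in each library, in FPKM on a log axis, ordered by the mean of the 4 libraries; each point is 1 library of 3 pooled hippocampi. Olig1 stands highest, from 39.83 to 76.91, and Mag lowest, from 0.37 to 1.17.

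The 9 genes spanned a wide range of levels. Olig1 was the most abundant, at 55.0 ± 15.6 FPKM (mean and SD of the 4 libraries, groups combined). Cnp followed at 24.6 ± 2.96 FPKM. Pdgfra at 15.3 ± 2.62, Olig2 at 14.2 ± 1.20 and Mbp at 14.2 ± 1.55 formed a middle group, in which the ranges of neighbouring genes overlapped. Mog stood at 8.20 ± 0.619 FPKM. Sox10 at 4.81 ± 1.07 and Cspg4, whose 4 values ran from 4.05 to 5.35, could not be ordered by level. Mag was last at 0.66 ± 0.364 FPKM, and it was the only one of the 9 that missed the mean of 1 FPKM required for the test across all rows. The other neighbours in this order were apart in every library.

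The progenitor genes and the myelin genes differed in total. The 5 progenitor genes summed to 117 and 89.5 FPKM in control and BPA males and to 92.9 and 76.4 in control and BPA females. The 4 myelin genes summed to 54.0 and 45.1 FPKM in males and 47.2 and 44.3 in females, control first. The progenitor sum was therefore 2.17 and 1.98 times the myelin sum in males and 1.97 and 1.72 times in females, highest in the control males and lowest in the BPA females. Olig1 carried this order. The other 4 progenitor genes summed to 40.15 and 38.7 FPKM in males and 40.4 and 36.5 in females, control first, which was 0.743 and 0.858 times the myelin sum in males and 0.856 and 0.825 times in females.

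The first comparison asked whether the transcripts of the lineage differed between pups of BPA-treated and of vehicle-treated dams. Olig1 had the clearest separation of the well-expressed genes, at 66.0% of the control level in males and 75.9% in females. None of the 8 genes tested passed an adjusted p of 0.05 in limma, and neither did any of the 13542 rows tested (0.00% called). At an unadjusted p under 0.05, 637 rows passed (4.70% of all), 421 of them on the lower side (3.11%). Among the 9 genes only Olig1 was one of these. The smallest p that an exact permutation test of 2 libraries against 2 can give is 0.333, so no single gene could pass such a test.

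**Figure D2:**
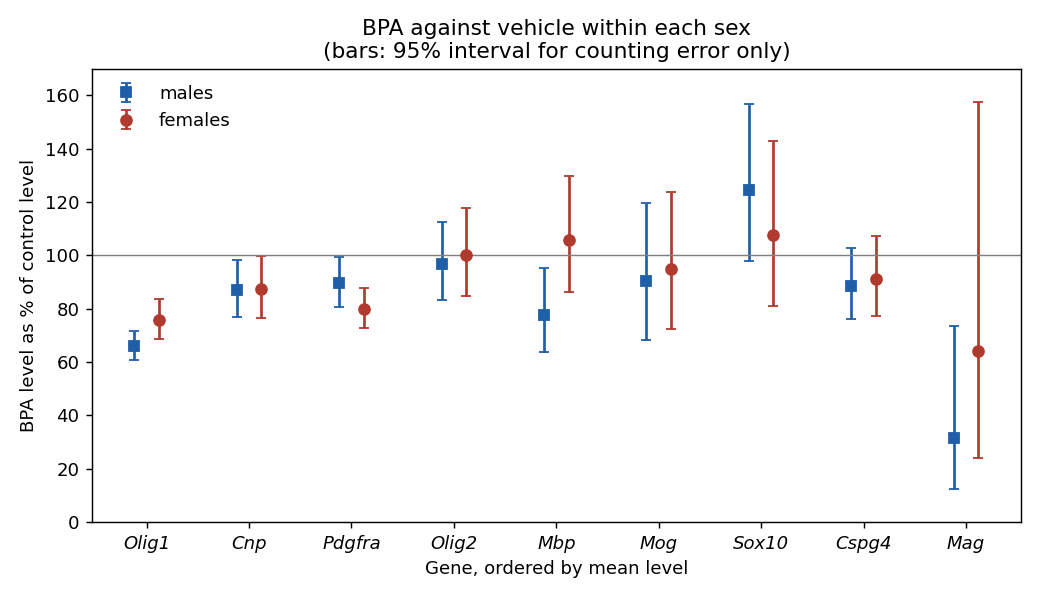
BPA level as a percent of the control level for each gene, squares for males and circles for females, each from 2 libraries; bars are 95% exact intervals for counting error alone. The intervals of Olig1, Pdgfra and Cnp stay below 100% in both sexes, and that of Mag in males runs from 12.5% to 73.4%.

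Olig1 (gene ID 60394) encodes a transcription factor that drives oligodendrocyte maturation and repair. Control males had 76.91 FPKM and BPA males 50.79, while control females had 52.49 and BPA females 39.83. Both BPA libraries lay below both control libraries, although male BPA and female control were close. These values rest on about 1416, 932, 947 and 728 fragments. The BPA level was 66.0% of control in males (95% interval for counting error 60.7 to 71.8%) and 75.9% in females (68.8 to 83.7%). On the log2(FPKM + 1) scale, the difference over both sexes was -0.49 ± 0.20 (SE, 2 libraries against 2, limma unadjusted p = 0.0458, adjusted p = 0.973), with a 95% interval from -0.97 to -0.012. Without male control the difference was -0.22, without female control -0.76, without male BPA -0.66 and without female BPA -0.32.

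Olig2 (gene ID 304103), the factor that specifies the lineage, lies next to Olig1 on the chromosome. Its levels were 15.51 FPKM in control and 15.0 in BPA males, and 13.2 in control and 13.21 in BPA females. That is 96.7% of control under BPA in males (83.3 to 113%) and 100.1% in females (84.8 to 118%). Treatment groups overlapped, and the limma difference was -0.022 ± 0.138 (adjusted p = 0.991, 95% interval -0.35 to 0.31). The ratio of Olig1 to Olig2 was accordingly 4.96 in control males and 3.39 in BPA males, and 3.98 in control females and 3.02 in BPA females. Both BPA ratios were below both control ratios, the neighbouring gene having nearly the same level within each sex.

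Sox10 (gene ID 29361), a factor required for terminal differentiation and a direct activator of myelin genes, was the only one of the 9 with a higher BPA level in both sexes. Males had 5.01 FPKM in control and 6.23 under BPA, and females 3.85 and 4.15. BPA males thus stood at 124% of control (97.8 to 157%) and BPA females at 108% (81.1 to 143%), and both counting intervals held 100%. Treatment groups overlapped, since both female libraries lay below both male ones. The limma difference was 0.18 ± 0.223 (adjusted p = 0.975) and turned to -0.068 without male BPA.

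Pdgfra (gene ID 25267) encodes the receptor through which platelet-derived growth factor keeps progenitors dividing. Its level was 14.28 FPKM in control and 12.78 in BPA males, and 18.93 in control and 15.12 in BPA females. Under BPA this was 89.5% of control in males (80.7 to 99.3%) and 79.9% in females (72.7 to 87.7%). Treatment groups overlapped, because female BPA stood above male control. The limma difference was -0.23 ± 0.167 (adjusted p = 0.973), and without female control it was -0.036. Female control also had the highest meningeal fibroblast sum, 180 FPKM against 61.9 to 75.9 in the other 3 libraries. Its Col1a1, for example, was at 28.3 FPKM, against 10.3 to 16.7 in the others. Pdgfra is made by meningeal fibroblasts as well as by oligodendrocyte progenitors, and the part of these markers in the Pdgfra values was not tested.

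Cspg4 (gene ID 81651), the NG2 proteoglycan, is likewise shared, in this case between progenitors and pericytes. It stood at 5.35 FPKM in control and 4.73 in BPA males, and at 4.45 in control and 4.05 in BPA females, so that treatment groups overlapped. The BPA level was 88.4% of control in males (76.2 to 103%) and 91.0% in females, and the limma difference was -0.13 ± 0.176 (adjusted p = 0.980), with -0.019 without male control, -0.038 without female BPA, -0.22 without male BPA and -0.24 without female control. The 9 pericyte markers summed to 79.2 and 68.9 FPKM in males and 78.7 and 68.4 in females, control first. Both BPA sums lay below both control sums, but 4 of the 9 markers were lower under BPA in both sexes. Of all rows tested, 31.6% were lower in both. The pericyte marker Rgs5 was at 25.1 and 17.5 FPKM in males and at 30.4 and 20.7 in females, control first, and without it the sum was 54.1 and 51.4 in males and 48.3 and 47.7 in females. The part of pericyte markers in the Cspg4 values was not tested.

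Cnp (gene ID 25275) encodes a phosphodiesterase that is among the first myelin proteins to appear and that progenitors already make. Males had 28.4 FPKM in control and 24.7 under BPA, and females 24.2 and 21.19. The BPA level was much alike in both sexes, at 87.0% of control in males (76.9 to 98.2%) and 87.6% in females (76.5 to 99.9%). Male BPA lay just above female control, so treatment groups overlapped. The limma difference was -0.19 ± 0.134 (adjusted p = 0.973, 95% interval -0.51 to 0.13), with -0.078 without male control, -0.083 without female BPA, -0.29 without male BPA and -0.30 without female control.

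Mbp (gene ID 24547), myelin basic protein, compacts the sheath. It was at 16.29 FPKM in control and 12.68 in BPA males, and at 13.49 in control and 14.25 in BPA females. Relative to control, BPA libraries were at 77.8% in males (63.8 to 95.3%) and 106% in females (86.2 to 130%), in opposite directions, and treatment groups overlapped. The limma difference over both sexes was -0.13 ± 0.142 (adjusted p = 0.973), with -0.0046 without male control, -0.054 without male BPA, -0.21 without female BPA and -0.26 without female control. The Mbp locus also produces longer golli transcripts, which neurons and progenitors make, and the RefSeq promoter table lists 2 starts for the gene. The single deposited row does not tell these transcripts apart.

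Mog (gene ID 24558), myelin oligodendrocyte glycoprotein, sits on the outer face of mature myelin. Males had 8.17 FPKM in control and 7.38 under BPA, and females 8.86 and 8.4, from about 100 to 118 fragments a library, and treatment groups overlapped. BPA males were at 90.3% of control (68.3 to 119.6%) and BPA females at 94.8% (72.5 to 124%), and the limma difference was -0.10 ± 0.143 (adjusted p = 0.981), with -0.017 without male BPA, -0.047 without female control, -0.15 without male control and -0.18 without female BPA. A neighbour of Mog on the chromosome, Gabbr1, which encodes a subunit of the GABA-B receptor, was at 164 to 175 FPKM. Whether counting used the strand is not given in the sources used here, and the part of Gabbr1 in the Mog values was not tested.

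Mag (gene ID 29409), myelin-associated glycoprotein, is found in the innermost wrap of myelin beside the axon. Control males had 1.17 FPKM and BPA males 0.37, from about 25 and 8 fragments, and control and BPA females had 0.67 and 0.43, from about 14 and 9. Both BPA libraries lay below both control libraries. The BPA level was 31.6% of control in males (12.5 to 73.4%), while in females it was 64.2% with an interval, 24.2 to 157%, too wide to show a difference at this depth. In a fit without the filter on low values, the limma difference was -0.44 ± 0.166 (adjusted p = 0.905). Mog stood at 6.98 and 19.9 times the level of Mag in control and BPA males and at 13.2 and 19.5 times in control and BPA females, although both are late myelin genes.

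Counted over the 9 genes, 6 had lower levels in the BPA library of both sexes (Olig1, Pdgfra, Cspg4, Cnp, Mag and Mog), against 31.6% of all rows tested. Under quantile normalization the count was 4, since the female differences of Cspg4 and Mog became 0.017 and 0.0060. Sox10 alone was higher in both sexes, against 24.4% of rows. Both BPA libraries lay below both control libraries for Olig1 and Mag, 2 of the 9, where 19.9% of all rows tested had that pattern. In the other 7 the treatments overlapped, while they did not in 33.6% of all rows tested, counting both directions. The rows tested leave out Mag. Of the 8 genes tested, 5 were lower in both sexes and 1, Olig1, had both BPA libraries below both control libraries. On the log2(FPKM + 1) scale, no gene of the 9 reached an absolute difference of 1 in either sex, where 1.70% of rows did in males and 2.32% in females. At 0.5, Olig1 and Mag passed in males, Olig1 alone among the 8 genes tested (7.26% of rows). None passed in females (10.1%). With a pseudocount of 0.1 Mag stood at -1.43 in males, past 1, and at -0.54 in females, past 0.5. Over the 8 genes tested, the median limma difference was -0.13, against -0.019 over all rows, and 7 of the 8 were below 0, against 54.4% of all rows. Leaving out 1 library at a time gave 6 to 8 of the 8 below 0, and the median moved between -0.19 without female control and -0.048 without male control.

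**Figure D3:**
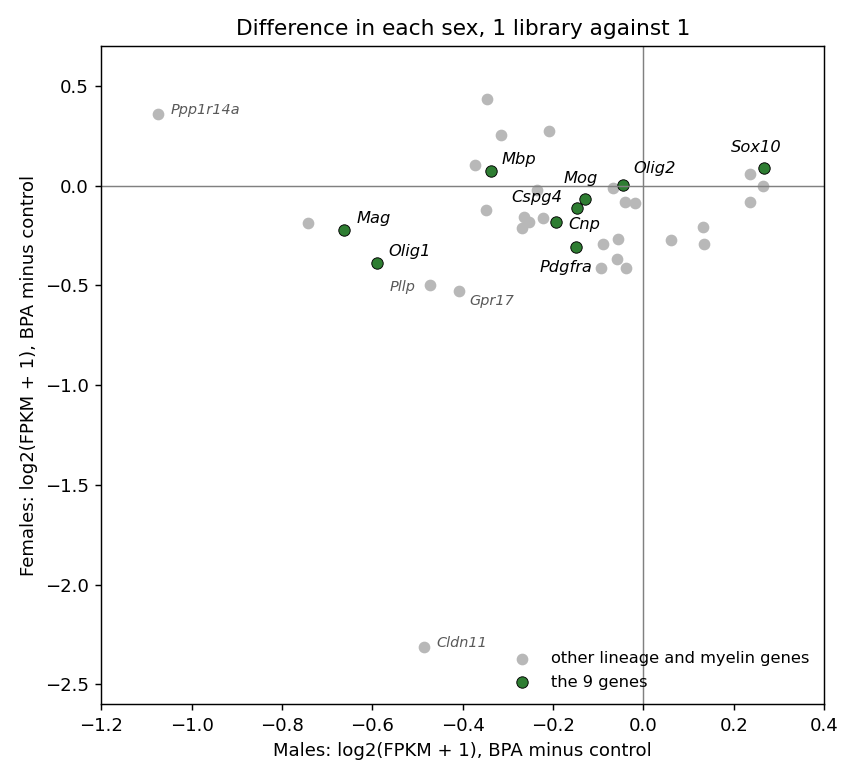
Difference between BPA and control on the log2(FPKM + 1) scale, males on the x axis and females on the y axis; green points are the 9 genes and grey points the 29 other lineage and myelin genes with a mean of at least 1 FPKM. Olig1, Mag, Pdgfra, Cnp, Cspg4 and Mog lie below 0 on both axes, Sox10 above 0 on both.

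The sexes were then set against each other, male minus female, both treatments together. For 6 of the 9 genes the male and female libraries did not overlap, where 42.3% of all rows had that pattern. Male levels were higher for Olig2, Sox10, Cnp and Cspg4 (22.5% of all rows) and lower for Pdgfra and Mog (19.8%). No gene passed an adjusted p of 0.05 in limma, as 1 row of all did (0.00738%), whereas 10.6% of rows had an unadjusted p under 0.05 and none of the 8 genes tested did. The limma difference was 0.40 ± 0.177 for Sox10 (adjusted p = 0.493), 0.44 ± 0.207 for Olig1 (adjusted p = 0.509) and -0.30 ± 0.138 for Pdgfra (adjusted p = 0.50). It was 0.22 ± 0.114 for Cnp (adjusted p = 0.552) and 0.19 ± 0.106 for Olig2 (adjusted p = 0.562). For Olig1 the value was 0.15 without male control, 0.25 without female BPA, 0.64 without female control and 0.74 without male BPA. For Pdgfra it was -0.15 without female control and -0.46 without female BPA. For Cnp it was 0.12 without male control and 0.13 without female BPA, and for Sox10 0.27 without male BPA.

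The sex difference in Olig1 was seen at both treatments. Male control was at 147% of female control (135 to 159%), and male BPA was at 128% of female BPA (116 to 141%). Pdgfra went the other way, with male control at 75.4% of female control (68.7 to 83.0%) and male BPA at 84.5% of female BPA (76.3 to 93.7%). For Sox10 the male BPA library was at 150% of female BPA (117 to 193%). Mbp did not keep its direction, with males at 121% of females in controls (99.1 to 147%) and at 89.0% under BPA (72.4 to 110%).

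Other genes of the lineage were taken from lists of 46 symbols, of which 41 had a row, 39 of them for both sexes, and 29 reached a mean of 1 FPKM. None passed an adjusted p of 0.05 for BPA against control. Of the 29, 18 had lower levels under BPA in both sexes, against 31.6% of all rows tested. Higher levels in both sexes were seen for 1, Pcdh15, against 24.4% of rows. Both BPA libraries were below both control libraries for 12 and above them for 0, where 19.9% and 13.8% of all rows had these patterns. The median limma difference of the 29 was -0.16, against -0.019 over all rows.

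Of these 29 genes, 3 had an unadjusted limma p under 0.05, against 4.70% of all rows. Gpr17, a receptor that marks progenitors committed to differentiate, had 8.47 FPKM in control and 6.13 in BPA males, and 8.13 and 5.33 in the females. Its limma difference was -0.47 ± 0.147 (unadjusted p = 0.0164, adjusted p = 0.973). Pllp, a myelin membrane protein, was at 4.4 and 2.89 FPKM in males and 4.08 and 2.59 in females, control first, with a difference of -0.49 ± 0.179 (unadjusted p = 0.0315, adjusted p = 0.973). Within each sex, the difference between BPA and control was -0.41 in males and -0.53 in females for Gpr17, and -0.47 and -0.50 for Pllp. Cldn11, the tight junction protein of myelin, was at 1.62 and 0.87 FPKM in males and at 6.81 and 0.57 in females, with a difference of -1.40 ± 0.489 (unadjusted p = 0.0255, adjusted p = 0.973). Cldn11 is also made in the arachnoid of the meninges, and the high value was in the library with the highest fibroblast sum. The part of these markers in the Cldn11 values was not tested.

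Among the other transcription factors, 6 of the 7 that reached 1 FPKM were lower under BPA in both sexes, against 31.6% of rows tested. Sox8, a relative of Sox10, was at 4.92 and 3.93 FPKM in males and at 3.95 and 3.44 in females, control first. It did not pass the test (adjusted p = 0.973 in limma). The most abundant gene of this list, Zeb2, had 84.4 and 81.0 FPKM in males and 85.0 and 65.5 in females.

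Of 12 progenitor and precursor genes, 6 were lower under BPA in both sexes, against 31.6% of all rows tested. Ptprz1 and Ncan, which progenitors share with astrocytes and radial glia, were the most abundant at 100 to 131 and 149 to 215 FPKM. The summed level of 9 astrocyte and radial glia markers was 1429 and 1287 FPKM in control and BPA males and 1422 and 1309 in control and BPA females. For 6 of those 9 markers both BPA libraries lay below both control libraries, against 19.9% of all rows. Aqp4, the water channel of astrocytes, was at 35.8 and 24.9 FPKM in males and 37.7 and 27.8 in females, control first. The part of this list in the lineage values was not tested.

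Several genes of mature myelin were scarce. Opalin was at 0.01 to 0.04 FPKM, Hapln2 at 0.01 to 0.09, Tmem125 at 0.01 to 0.17 and Mal at 0.05 to 0.41, where 0.01 is the lowest value listed. Ppp1r14a was the only gene of the 29 past an absolute log2 difference of 1 in males, at 5.53 and 2.1 FPKM, and in females it was at 2.31 and 3.24, in the other direction. These 5 genes and Pcdh15 were named after their values had been seen. Schwann cells, which make the myelin of peripheral nerves and share Mbp, Mag and Sox10, were barely represented, with 4 markers summing to 0.51 to 0.81 FPKM.

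**Figure D4:**
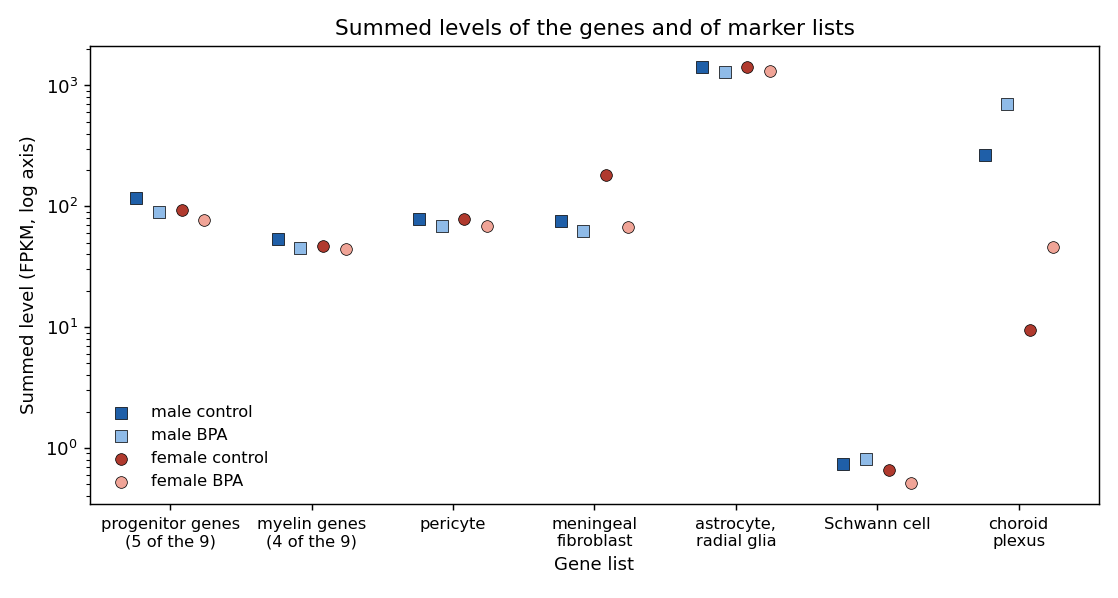
Summed level of the 5 progenitor genes, the 4 myelin genes and 5 marker lists in each library, in FPKM on a log axis; each point is 1 library. The fibroblast sum is highest in female control (180) and the choroid plexus sum runs from 9.49 to 707, while the progenitor sum stays between 76.4 and 117.

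The rows whose profile over the 4 libraries was most like that of the lineage were found among 8349 rows with a gene ID and a mean of at least 5 FPKM. For the progenitor genes these were Blvrb, Gpr137 and Adpgk, and for the myelin genes Grm7, Ivd and Uqcc2, all with a Pearson r above 0.99. Blvrb, a biliverdin reductase, had 15.63 and 12.67 FPKM in control and BPA males and 11.9 and 9.47 in control and BPA females. With only 4 libraries such a likeness is easily met, and 78 rows reached an r of 0.99 with the progenitor profile and 34 with the myelin profile.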

How the data were processed

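RNA-seq values of neonatal rat hippocampus were taken as the authors deposited them: FPKM per gene and library, to 2 decimals, with 0.01 the lowest. The submitters' processing notes name HISAT 0.1.6, Bowtie2 2.2.5, RSEM and the build rn6, without saying which step each made. Males have 16878 rows and females 16942, with 16375 shared by the 4 libraries. A gene ID is given for 13984 of the 17445 rows, and the other 3461 are unnamed gene models, none of which matched one of the 9 genes. FPKM removes length and depth but not composition, so a change in a few abundant genes shifts all others.

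Tests were run in R 4.3.3 with limma 3.58.1, a moderated linear model (trended eBayes, Benjamini-Hochberg adjustment), on log2(FPKM + 1) over 13542 rows in all 4 tables with a mean of at least 1, with 2 BPA libraries against 2 controls, or 2 male against 2 female. No covariate was used, so sex adds to the spread in the first and treatment in the second. Since the libraries are pools and not separate animals, a p measures only the spread between these libraries. The pseudocount of 1 makes fold changes of low genes too small. Within a sex there was 1 library against 1 and no test. Depth was estimated by finding the fragment total that turns low values into whole fragments: 95.3 to 98.6% of them lay within 0.15 of a whole fragment. The 95% intervals are exact binomial intervals on those fragments. Other steps ran in Python 3.11.15 (scipy 1.17.1, pandas 2.3.3, numpy 2.4.6, matplotlib 3.10.9), and the fit and the depth estimate were tested on simulated data.

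The genes and the lists were chosen with earlier results of these data known. Named from each list were the 4 with the highest mean and the 3 with the largest difference, and from these the text takes those its results touch. Also named were the 3 rows most like the mean profile of each set of genes, by Pearson r of centred log2(FPKM + 1). Symbols were matched to the tables directly or through RefSeq synonyms; a synonym shared by several genes (Trf) was left out. Mobp, Lhfpl3, Nkx6-2 and Zfp488 had no row and Enpp6 and Ermn had one for females only. Promoters come from RefSeq (GRCr8), another build than rn6, so that no coordinate of the genes themselves is given. Alternatives were a pseudocount of 0.1, a mean of at least 5 or no filter, quantile normalization, median-ratio scaling, sums of a gene with its new models, the other factor as a covariate, each library left out, an unadjusted p and a log2 fold of 0.5.

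Further lists served as checks. Interneuron progenitor markers summed to 93.2 to 112 FPKM, thalamus markers to 43.1 to 53.9 and microglia markers to 30.7 to 40.0. Hippocampal markers summed to 1454 to 1728 FPKM, and most of that was Tubb3, at 1150 to 1412. A few genes of the lists are not reported here by name.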

Additional observations from a re-analysis of the deposited data

Results flagged for a closer look

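Olig2 and Mbp had BPA differences of opposite sign in the 2 sexes. On the log2(FPKM + 1) scale, Olig2 differed by -0.045 in males and 0.001 in females, and Mbp by -0.34 in males and 0.074 in females. Each value compares 1 library with 1, and the difference between the sexes was not tested. For Olig2 both values lie within counting error of 0, and for Mbp the male interval alone stays below the control level.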

How the results depend on the processing

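For BPA against control over both sexes, the number of rows past an adjusted p of 0.05 was 0, and 2 with sex as a covariate, 0 to 3 when a library was left out (3 without female control, 1 without male BPA) and 637 with an unadjusted p. For male against female it was 1, and 21 with a mean of at least 5 FPKM, 26 with sums per gene, 55 with treatment as a covariate, 1 to 2 with a library left out and 1442 unadjusted. Olig2 changed sign under BPA with median-ratio scaling (0.0098), without male control (0.087) and without female BPA (0.063), its range with a library left out being -0.13 to 0.087, and Sox10 without male BPA (-0.068 to 0.42). Mbp changed sign between the sexes without male control (-0.12 to 0.22). The other 167 of 172 limma values of the 8 genes kept their direction and stayed above an adjusted p of 0.05. The lowest adjusted p of any gene was 0.152 for treatment and 0.0775 for sex, both of Olig1 with the other factor as a covariate, where the range for Olig1 ran up to 1 and 0.966. The median of the 8 genes was -0.19 to -0.048 for treatment and 0.12 to 0.24 for sex with a library left out, and 0.12 for sex with a mean of at least 5. The causes were not tested.

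Rows past a log2 fold of 1 numbered 230 in males, and 483 with a pseudocount of 0.1, 26 with a mean of at least 5, 56 with sums per gene and 981 at a fold of 0.5. In females they numbered 314, and 590, 62, 113 and 1370 in the same order. Under quantile normalization the female split was 169 higher and 120 lower, against 139 and 175. The 72 alternative values of the 9 genes from 2 libraries moved by less than counting error allows, but quantile normalization took the genes lower in both sexes from 6 to 4 (Cspg4 and Mog in females), and a pseudocount of 0.1 took Mag past a fold of 1 in males and 0.5 in females. The 18 mean levels moved by less than the SD between libraries. The counts of members below 0 without each library were added after seeing the data. The labels carry no replicate numbers, and the fit with sex as a covariate is the comparison of BPA with control within sex. Mag, at 8 to 25 fragments, is limited by depth, and without replicate libraries no difference within a sex can be told from variation between pools.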

Other observations

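Signals that act on the lineage were measured beside it. Of 16 such genes, 13 reached a mean of 1 FPKM, and none passed an adjusted p of 0.05 in limma. Of the 13, 6 were lower under BPA in both sexes and 0 higher, against 31.6% and 24.4% of all rows tested. Both BPA libraries were below both control libraries for Hes5, Pdgfc and Pdgfa, 3 of the 13, where 19.9% of all rows had that pattern. Hes5, a Notch target that holds progenitors back from differentiating, had 10.6 FPKM in control and 6.26 in BPA males, and 6.33 in control and 3.92 in BPA females, with a limma difference of -0.63 ± 0.278 (adjusted p = 0.973). Pdgfa, the ligand of Pdgfra, had 11.1 and 9.19 FPKM in males and 10.3 and 10.1 in females, control first, and was named after its values had been seen. Pdgfc, another ligand of that receptor, had 2.35 and 1.6 FPKM in males and 2.91 and 1.77 in females.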
